A study of Mus musculus with 6 samples.

Results

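A set of 10 tubulin isotype genes was followed in the hearts of mice given angiotensin II (Ang II) with or without tectochrysin (Tec), a plant flavonoid. The 10 genes, chosen by gene name, comprised 5 α-tubulin genes (Tuba1a, Tuba1b, Tuba1c, Tuba4a and Tuba8) and 5 β-tubulin genes (Tubb2a, Tubb2b, Tubb4b, Tubb5 and Tubb6), out of 30914 genes in the expression table. They were picked when results of this same comparison were already known, so their differences between the groups are a description and were not tested. All mice were wild-type male C57BL/6J, were 8 weeks old, and were infused from osmotic pumps with Ang II, 1 μg/kg/min over 4 weeks. The Ang II group held 3 hearts, and the 3 hearts of the Ang II + Tec group came from mice that also received Tec at 5 mg/kg during the last 2 weeks. The libraries are titled as separate hearts, the sources used here give no pairing between the groups, and p-values measure the spread between these libraries. Expression was given as FPKM, the fragments of a gene scaled by the length of its transcript and by the total of the library, and the values of a group are listed in the order of replicates 1, 2 and 3.

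α- and β-tubulin pair into the dimers that make up microtubules, the hollow filaments that serve as tracks for transport and that, in heart muscle cells, run along and between the contractile units. Mammals have several genes for each subunit, whose proteins differ most in the acidic tail at the end of the chain. Most α-tubulins end in a tyrosine that enzymes remove and put back, and microtubules without this tyrosine are longer lived and are known to stiffen cardiac muscle cells in hypertrophy and heart failure. Cells also adjust their tubulin messenger RNA to the amount of free tubulin dimer, because a factor that reads the first residues of nascent α- and β-tubulin on the ribosome starts the decay of the message.

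The ends of 6 coding sequences are shown because they carry the tail by which isotypes are told apart. They are the last 63 bases of each, read from GENCODE M21 transcripts (GRCm38), with the last codon before the stop codon in capitals.
Tuba4a (chr1:75215622-75215684, minus strand): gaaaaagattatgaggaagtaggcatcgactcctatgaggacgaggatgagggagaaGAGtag
Tuba8 (chr6:121226017-121226079, plus strand): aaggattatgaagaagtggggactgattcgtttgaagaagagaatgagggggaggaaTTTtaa
Tubb2a (chr13:34074468-34074530, minus strand): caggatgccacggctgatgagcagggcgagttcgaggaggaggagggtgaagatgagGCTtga
Tubb2b (chr13:34127471-34127533, minus strand): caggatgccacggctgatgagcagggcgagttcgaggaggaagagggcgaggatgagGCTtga
Tubb4b (chr2:25222308-25222370, minus strand): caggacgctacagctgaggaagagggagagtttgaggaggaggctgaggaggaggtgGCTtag
Tubb5 (chr17:35834982-35835044, minus strand): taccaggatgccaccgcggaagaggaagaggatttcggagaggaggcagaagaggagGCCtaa
Tuba4a ends in a glutamate codon and Tuba8 in a phenylalanine codon, so neither gene encodes the terminal tyrosine. Of the last 20 codons, Tuba4a has 12 for glutamate or aspartate, against 10 in Tuba8 and 11 in Tubb2a, Tubb2b, Tubb4b and Tubb5.

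The isotypes also differ in how well their reads can be assigned. Over the coding sequence, Tuba1a was 98.3% identical to Tuba1b and 97.6% to Tuba1c, Tuba1b was 98.4% identical to Tuba1c, and Tubb2a was 96.5% identical to Tubb2b. The levels of Tuba1a, Tuba1b, Tuba1c, Tubb2a and Tubb2b are therefore uncertain as far as reads in the shared stretches could be split between them. Tuba4a was 85.3% identical to Tuba1a and 82.2% to Tuba8, which leaves many positions at which a read can be told apart. A pseudogene of Tubb4b, Tubb4b-ps1, was listed at 5.42, 5.42 and 1.54 FPKM with Ang II alone and at 3.15, 3.37 and 2.59 FPKM with Tec, so it followed the library order of Tubb4b at a much lower level.

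Ang II replicate 3 stood apart from the other Ang II hearts across the table. In a principal component analysis of the 13089 tested genes, whose leading component accounted for 68.7% of the variance, the scores were -31.2, -46.0 and 19.2 in the Ang II hearts and 28.6, 2.39 and 27.0 with Tec. Transcripts of the mitochondrial genome took up 40.2% to 48.9% of the summed FPKM in the Ang II group and 49.6% to 52.5% with Tec, while the FPKM of all other genes summed to 303137 to 309678 in the Ang II group and to 293051 to 303611 with Tec. The heart muscle markers (Myh6, Tnnt2, Tnni3, Actc1, Myl2, Myl3, Ryr2 and Pln) were all present, with a summed level of 9876 to 12084 FPKM in the Ang II group and of 10698 to 11861 FPKM with Tec, so the labelled tissue held for each library. The isotypes are therefore described with and without Ang II replicate 3.

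Every one of the 10 isotypes had a lower mean of log2(FPKM + 1) in the Ang II + Tec group. A lower mean was found in 80.0% of all tested genes. The median log2 fold change of the 10 genes was -0.63, against -0.17 for all tested genes, and without Ang II replicate 3 these medians were -1.04 and -0.24. With median-of-ratios scaling, in which a library is divided by its median ratio to the geometric mean of all 6, they were -0.39 and 0.0087. A gene was tested if 3 or more libraries reached 0.5 FPKM, and all 10 isotypes did so in every library. For 2 of the 10, Tuba4a and Tuba1b, every Tec heart was lower than every Ang II heart, as was the case in 18.9% of all tested genes.

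**Figure D1:**
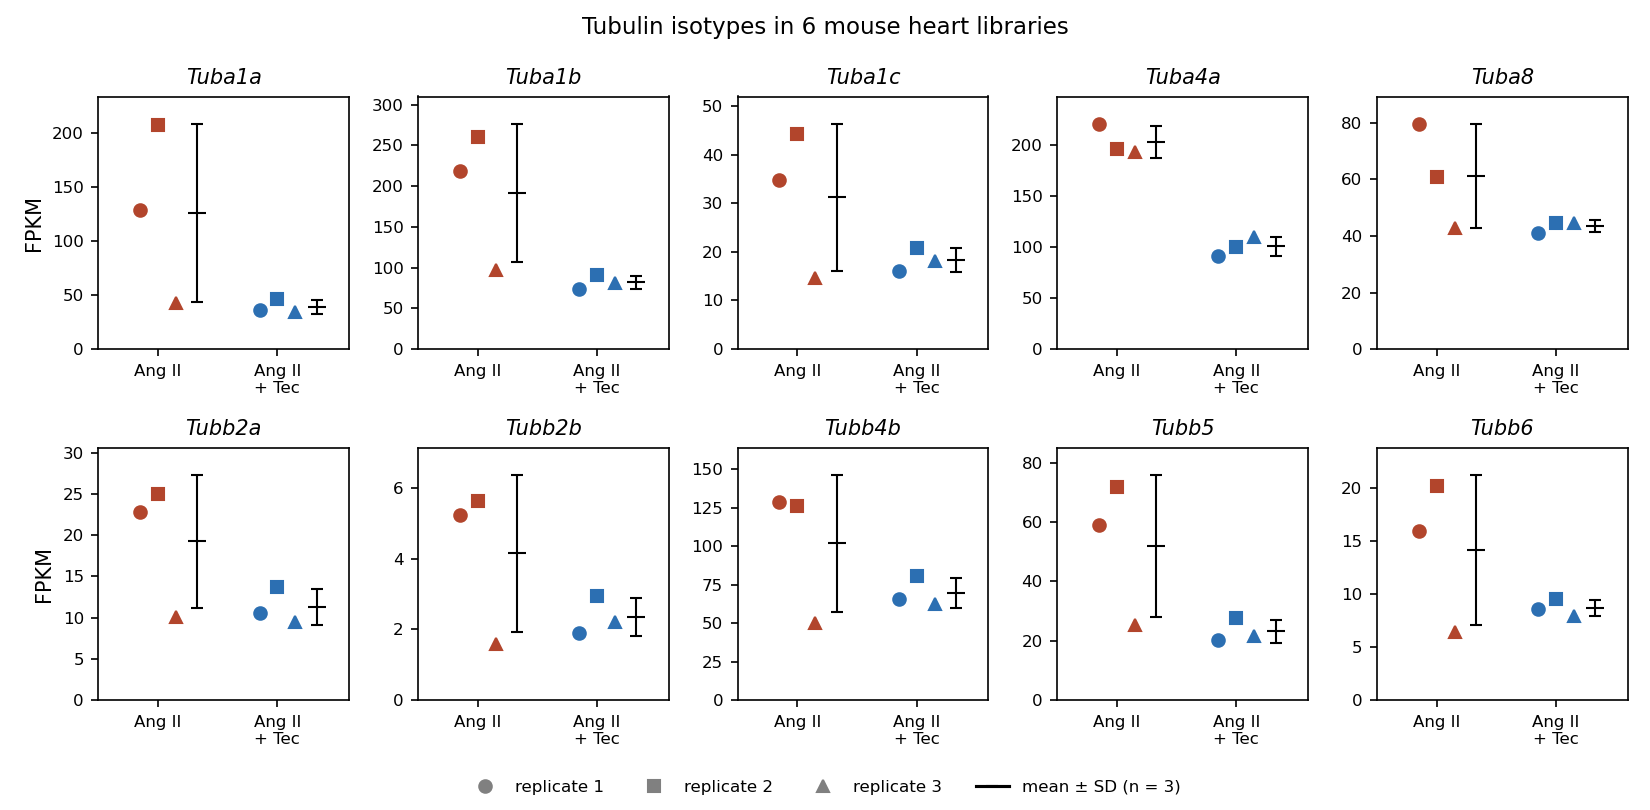
FPKM of each tubulin isotype (vertical axes, each starting at 0) in the 3 Ang II and 3 Ang II + Tec hearts, with a symbol for each replicate and the mean ± SD beside them. Ang II replicate 3 (red triangle) is the lowest Ang II heart in all 10 panels, and it lies well above the Tec hearts in the Tuba4a panel, at 193 FPKM against at most 109.6.

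Tuba4a (ENSMUSG00000026202, chromosome 1 from 75214228 to 75219865, minus strand, GRCm38) encodes an α-tubulin that is abundant in heart, skeletal muscle and platelets. It was at 221, 195 and 193 FPKM with Ang II alone and at 91.1, 100.3 and 109.6 FPKM with Tec. All 3 Ang II hearts were close to each other, Ang II replicate 3 included, and the lowest of them was 1.76 times the highest Tec heart. The means were 203 ± 15.5 FPKM (SD, n = 3) and 100.3 ± 9.27 FPKM (SD, n = 3), a log2 fold change of -1.01 (standard error 0.12). The value was -1.05 without Ang II replicate 3 and lay between -1.08 and -0.94 in the 6 fits that each left out 1 library.

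Tuba4a was the 1 member among the 21 genes called differentially expressed in the table, that is, past an adjusted p of 0.05 (limma, Benjamini-Hochberg) and an absolute log2 fold change of 1. These 21 genes were 0.160% of the tested genes, and the 10 of them with lower values under Tec were 0.0764%. Since the comparison helped to choose the members, nothing is read from this count. Tuba4a sat near both limits. It was also called with a pseudocount of 0.1, with robust variance estimation and without Ang II replicate 3, and it was not called in the other 10 of the 13 alternatives, among them the rescaling by median ratios, under which its log2 fold change was -0.77.

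The Tuba1 genes behaved differently from Tuba4a, in that Ang II replicate 3 left the other Ang II hearts. Tuba1b (chromosome 15 from 98931425 to 98934565), a broadly expressed α-tubulin, was at 219, 260.0 and 97.0 FPKM with Ang II alone and at 74.0, 90.5 and 80.9 FPKM with Tec. The groups did not overlap, but Ang II replicate 3 was nearer to the Tec hearts than to the other Ang II hearts. The log2 fold change was -1.11 (standard error 0.34), and -1.54 (standard error 0.13) without that library.

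Tuba1a (chromosome 15 from 98949837 to 98953703), the α-tubulin best known from developing neurons, had the largest standard error, with levels of 129, 208 and 42.9 FPKM with Ang II alone. The Tec hearts were at 36.1, 46.5 and 34.3 FPKM, so Ang II replicate 3 fell among them. Its log2 fold change of -1.42 (standard error 0.51) became -2.06 (standard error 0.22) when Ang II replicate 3 was left out and -0.93 when Ang II replicate 2 was. Tuba1c (chromosome 15 from 99029891 to 99038110) was at 34.9, 44.3 and 14.6 FPKM with Ang II alone and at 16.0, 20.9 and 18.2 FPKM with Tec. Here Ang II replicate 3 was the lowest of all 6 hearts, and the log2 fold change was -0.61 (standard error 0.37) with it and -1.07 without it. When the FPKM of the 3 neighbouring Tuba1 genes were summed, the log2 fold change was -1.17 (standard error 0.40). The sum lessens the effect of reads split between these genes but does not recover reads left out as ambiguous, whose handling is not known.

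Tuba8 (chromosome 6 from 121210696 to 121226854), a divergent α-tubulin found in heart, skeletal muscle and testis, was at 79.8, 61.0 and 42.9 FPKM with Ang II alone and at 41.1, 44.6 and 44.8 FPKM with Tec. Its Tec hearts were nearly level, and Ang II replicate 3 lay among them. The log2 fold change was -0.44 (standard error 0.21), and -0.67 without Ang II replicate 3.

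Among the β-tubulins, Tubb5 (chromosome 17 from 35833921 to 35838306), a widely expressed isotype that is abundant in dividing cells, had the largest difference. It was at 59.0, 71.8 and 25.2 FPKM with Ang II alone and at 20.1, 27.6 and 21.7 FPKM with Tec, a log2 fold change of -1.02 (standard error 0.36). The range of the Tec hearts took in Ang II replicate 3, and the value without it was -1.46 (standard error 0.16). Tubb4b (chromosome 2 from 25222160 to 25224702), the most abundant β-tubulin here and a component of cilia as well as of cytoplasmic microtubules, was at 129, 126 and 50.2 FPKM with Ang II alone and at 65.5, 80.8 and 62.3 FPKM with Tec. The lowest heart of all was Ang II replicate 3, and the log2 fold change was -0.43 (standard error 0.35) with it and -0.88 without it.

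The 3 remaining β-tubulins were lower in level. Tubb2a (chromosome 13 from 34074274 to 34078007) was at 22.9, 25.0 and 10.0 FPKM with Ang II alone and at 10.6, 13.7 and 9.49 FPKM with Tec. Its neighbour Tubb2b (chromosome 13 from 34126748 to 34130466), best known from neurons, was at 5.24, 5.62 and 1.58 FPKM and at 1.89, 2.93 and 2.22 FPKM. Tubb6, an isotype reported to rise in regenerating muscle, was at 16.0, 20.2 and 6.38 FPKM and at 8.58, 9.51 and 7.98 FPKM. In all 3 genes the groups overlapped through Ang II replicate 3. The log2 fold changes of Tubb2a, Tubb2b and Tubb6 were -0.64, -0.51 and -0.52 (standard errors 0.32, 0.35 and 0.36) with that library and -1.04, -0.95 and -0.97 without it.

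**Figure D2:**
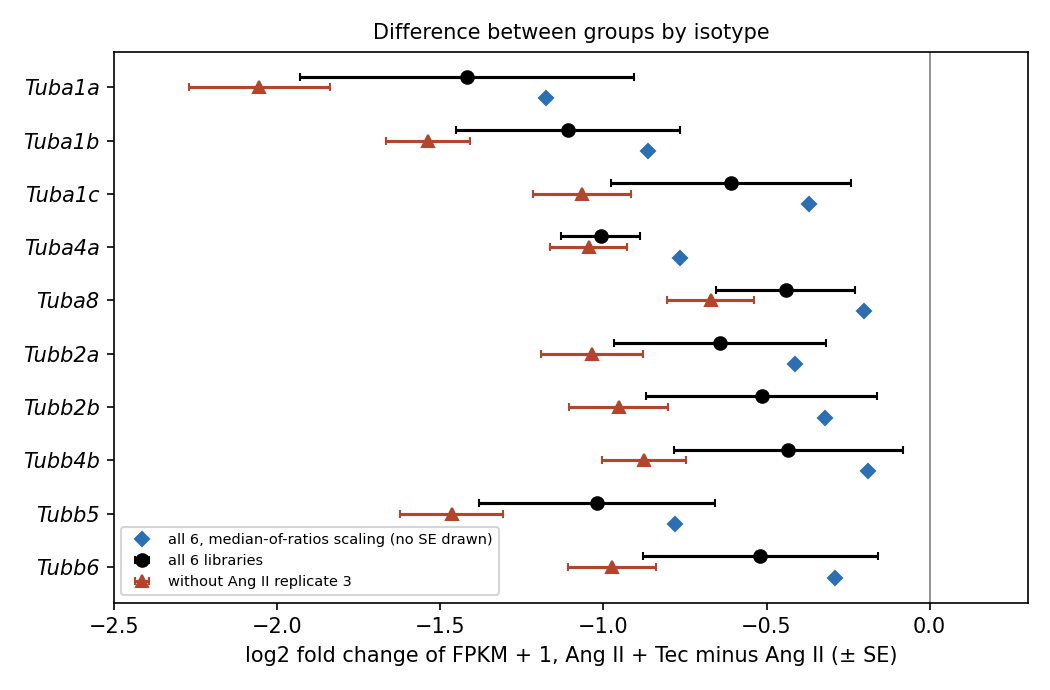
Log2 fold change of each isotype (horizontal axis, Ang II + Tec minus Ang II, on the log2(FPKM + 1) scale) with all 6 libraries (black, ± SE), without Ang II replicate 3 (red, ± SE) and after median-of-ratios scaling (blue). All values are below 0, and the black and red points nearly coincide for Tuba4a (-1.01 and -1.05) while they part for Tuba1a (-1.42 and -2.06).

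Ang II replicate 3 was the lowest heart of its group in all 10 genes. It lay above the range of the Tec hearts in 2 genes (Tuba1b and Tuba4a), within it in 4 (Tuba1a, Tuba8, Tubb2a and Tubb5) and below it in 4 (Tuba1c, Tubb2b, Tubb4b and Tubb6). Relative to the mean of Ang II replicates 1 and 2, its level was 0.926 for Tuba4a and 0.609 for Tuba8, and between 0.255 (Tuba1a) and 0.420 (Tubb2a) for the other 8 genes. Without this library, 6 of the 10 genes were called (Tuba1a, Tuba1b, Tuba1c, Tuba4a, Tubb2a and Tubb5), beside 4.26% of all tested genes, which is again a description. With Ang II replicate 1 or 2 left out instead, 0 of the 10 genes were called. Every isotype but Tuba4a then had a smaller difference than with all 6 libraries. The smallest log2 fold changes were -0.20 (Tubb4b), -0.21 (Tubb6), -0.23 (Tuba8), -0.27 (Tubb2b), -0.29 (Tuba1c) and -0.42 (Tubb2a). In the Tec group, replicate 2 was the highest heart in 8 of the 10 genes, the exceptions being Tuba4a and Tuba8.

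Across the 6 libraries the 8 genes other than Tuba4a and Tuba8 varied together, with a Pearson correlation of log2(FPKM + 1) between 0.884 and 0.995 over their 28 pairs. Tuba8 correlated with these 8 genes at 0.834 (Tubb6) to 0.896 (Tuba1b), which reaches into that range. The correlation of Tuba4a with the other 9 isotypes ran from 0.478 (Tubb4b) to 0.807 (Tuba1b). These are descriptions over 6 hearts that share a group difference and a scaling by library. In all tested genes the leading component held 68.7% of the variance. Of 11047 tested genes with a mean of at least 1 FPKM, those whose levels followed Tuba4a most closely included Mrpl47, a protein of the mitochondrial ribosome (correlation 0.996), B3galt6, a galactosyltransferase of proteoglycan synthesis (0.993), Fuom, a fucose mutarotase (0.992), and the ribosomal protein pseudogene Rpl9-ps4 (0.992). Fuom was at 9.08, 8.76 and 8.63 FPKM with Ang II alone and at 4.66, 4.89 and 4.91 FPKM with Tec, the same even step as in Tuba4a.

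FPKM is scaled by length, so the isotypes can be ordered by level. In the Ang II + Tec group the order of the means was Tuba4a (100.3 FPKM), Tuba1b (81.8 FPKM), Tubb4b (69.5 FPKM), Tuba8 (43.5 FPKM), Tuba1a (38.9 FPKM), Tubb5 (23.2 FPKM), Tuba1c (18.4 FPKM), Tubb2a (11.3 FPKM), Tubb6 (8.69 FPKM) and Tubb2b (2.35 FPKM). Within each Tec heart the levels followed this same order, except that Tuba1a (46.5 FPKM) was above Tuba8 (44.6 FPKM) in Tec replicate 2. The order of Tuba8 and Tuba1a is therefore not fixed. In the Ang II group Tuba4a again had the highest mean, 203 FPKM, and that of Tuba1b was 192 ± 84.8 FPKM (SD, n = 3). Tuba1b was above Tuba4a in Ang II replicate 2 only (260.0 against 195 FPKM). Tuba1a, at 126 ± 82.4 FPKM (SD, n = 3), had a higher mean than Tubb4b, at 101.8 ± 44.7 FPKM (SD, n = 3). It was above Tubb4b in Ang II replicate 2 only, and the spread covered both.

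The FPKM of the 5 α-tubulins summed to 683, 768 and 390 in the Ang II hearts and to 258, 303 and 288 with Tec, without overlap of the groups. In Ang II replicate 3, Tuba4a alone held 193 of the 390 FPKM. The other α-tubulins of that heart together lay within the range of the Tec hearts, so the lack of overlap rests on Tuba4a. The FPKM of the 5 β-tubulins summed to 232, 249 and 93.4 and to 107, 135 and 104, where Ang II replicate 3 was the lowest heart. Tuba4a made up 32.3%, 25.4% and 49.4% of the α-tubulin sum in the Ang II hearts and 35.3%, 33.1% and 38.1% with Tec. Its share was thus about equal in the groups on average, 35.7% ± 12.3 (SD, n = 3) and 35.5% ± 2.49 (SD, n = 3), and Ang II replicate 3, where the other α-tubulins were low, had the highest share of all. Without that heart the mean share was 6.64 percentage points higher with Tec.

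The shares of 4 other isotypes did not overlap between the groups, which is given as a description. Tuba8 made up 7.94% to 11.7% of the α-tubulin sum in the Ang II hearts and 14.7% to 15.9% with Tec. Tuba1c made up 3.73% to 5.77% and 6.20% to 6.90%. Tubb4b made up 50.8% to 55.6% of the β-tubulin sum in the Ang II hearts and 60.0% to 61.4% with Tec, whereas Tubb5 made up 25.4% to 28.8% and 18.9% to 20.9%. A share does not depend on the scaling of the library. Shares of the same sum are tied to each other, so the rise of Tubb4b and the fall of Tubb5 are not separate findings. The share of Tuba1c also rests on how reads shared with Tuba1a and Tuba1b were assigned. No background over all genes exists for such shares. The shares of Tubb4b and Tubb5 in Ang II replicate 3 (53.8% and 27.0%) lay within the range of the other Ang II hearts, although its β-tubulin sum was below those of the Tec hearts. The ratio of the α- to the β-tubulin sum was 2.94, 3.09 and 4.17 in the Ang II hearts and 2.42, 2.25 and 2.77 with Tec, without overlap.

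**Figure D3:**
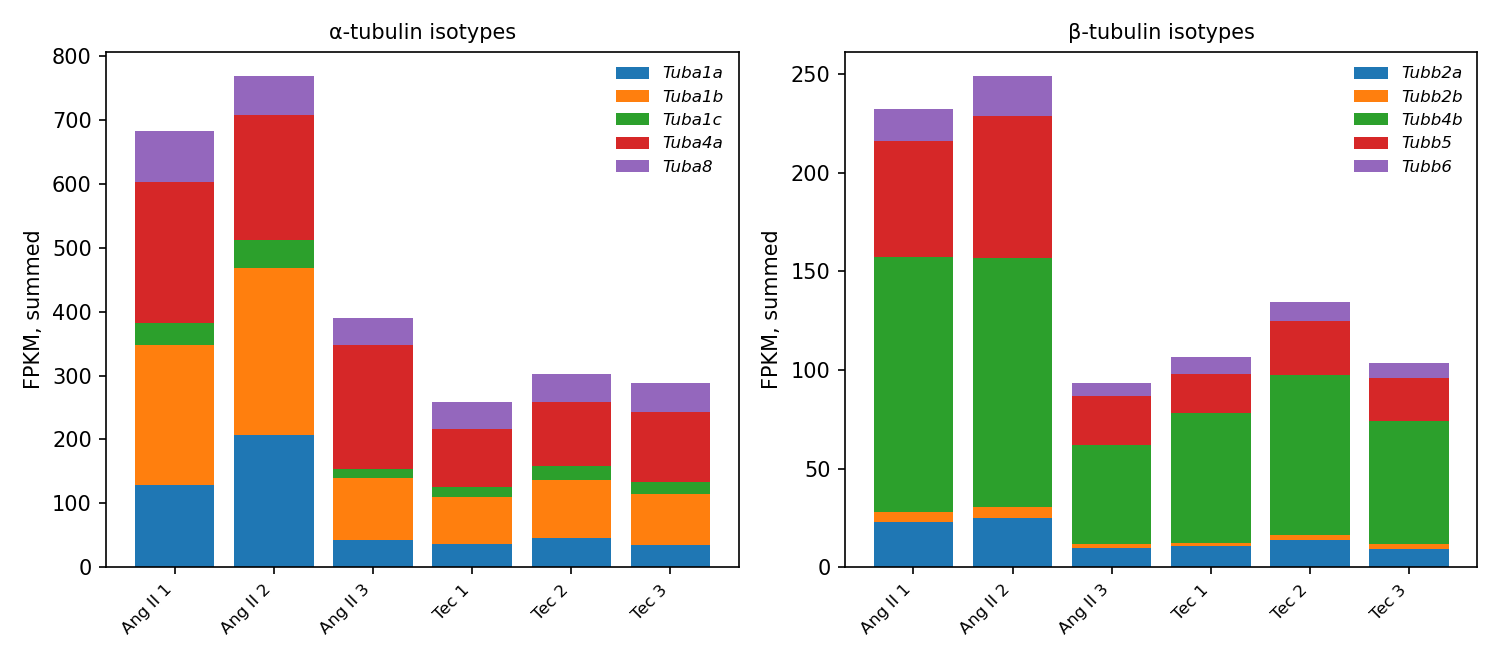
Summed FPKM of the 5 α-tubulin (left) and 5 β-tubulin (right) genes in each heart (horizontal axis, the Tec labels being the Ang II + Tec replicates), divided by isotype. Ang II replicate 3 keeps a Tuba4a block (red, left panel) of 193 FPKM while its other α-tubulin blocks are near those of the Tec hearts, and its β-tubulin bar of 93.4 FPKM is the lowest.

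Heart tissue contains many cell types, and in bulk samples fewer cells of a type and less RNA per cell cannot be told apart. The summed level of 8 fibroblast markers (Col1a1, Col1a2, Col3a1, Dcn, Pdgfra, Postn, Tcf21 and Lum) was 775, 1029 and 172 FPKM with Ang II alone and 142, 233 and 156 FPKM with Tec. All 8 markers had a lower mean with Tec, as did 80.0% of all tested genes. In this sum Ang II replicate 3 lay among the Tec hearts and Tec replicate 2 was the highest of its group, as they were for Tuba1a, Tubb2a and Tubb5. The 9 leukocyte markers summed to 151 to 325 FPKM in the Ang II group and to 110.4 to 121 FPKM with Tec. Most of this sum was Lyz2, at 163, 290 and 135 FPKM and at 107, 97.0 and 107 FPKM. Among the untested markers, all below 1 FPKM, S100a8 and Cd79a had higher means with Tec. Of the 5 tested, 5 were lower at an unadjusted p under 0.05, as were 16.5% of all tested genes. The 7 proliferation markers summed to 3.00 to 9.12 FPKM and to 1.19 to 1.39 FPKM, with 3 of 3 tested lower at that p. These 3 reached 0.5 FPKM in the Ang II hearts only. They passed the filter through the group with the higher values, so their direction was fixed in advance and nothing is read from it. The 7 endothelial markers summed to 100.5 to 110.0 FPKM and to 88.0 to 96.4 FPKM, and the 6 Schwann and nerve markers to 4.52 to 26.3 FPKM and to 6.40 to 10.6 FPKM.

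Some lists differed between hearts of one group. Myl7, the atrial myosin light chain, was at 419, 332 and 0 FPKM with Ang II alone and at 0, 1040 and 1.58 FPKM with Tec, so Ang II replicates 1 and 2 and Tec replicate 2 held atrial transcripts and the other 3 libraries held almost none. The 5 atrial markers, Nppa among them, summed to 6205, 10253 and 256 FPKM and to 906, 5056 and 128 FPKM. Nppa made up most of this sum in every library, at 5568, 9456 and 256 FPKM and at 906, 3489 and 125 FPKM. It encodes ANP, which the paper measured as a sign of hypertrophy, so the sum does not reflect atrial tissue alone. In Tec replicate 1, Myl7 and Sln were at 0 FPKM and Myl4 was at 0.290 FPKM. The 3 libraries with atrial transcripts were the highest of their groups in the 8 isotypes other than Tuba4a and Tuba8. The smooth muscle and pericyte markers summed to 229 to 462 FPKM in the Ang II group and to 188 to 348 FPKM with Tec. The platelet and erythroid markers summed to 164 to 642 FPKM and to 103 to 332 FPKM, most of which was Hbb-bs and Hba-a1, the haemoglobin genes. Pf4, a platelet marker, was at 13.4, 15.6 and 9.91 FPKM and at 7.79, 9.26 and 9.34 FPKM (log2 fold change -0.49, limma adjusted p = 0.231). Its groups did not overlap, as in 18.9% of all tested genes. The platelet markers Ppbp, Itga2b and Gp1bb were at most at 1.04 FPKM and overlapped. The skeletal muscle markers summed to 545 to 698 FPKM and to 655 to 1339 FPKM. Most of each sum was Ckm, at 340, 259 and 559 FPKM and at 697, 443 and 577 FPKM, and Acta1, at 196, 265 and 137 FPKM and at 627, 195 and 89.2 FPKM. Of the 6 tested, 2 were higher with Tec, Atp2a1, the calcium pump of fast muscle, and Mylpf, its myosin light chain (log2 fold changes 2.90 and 1.80, limma adjusted p = 0.000251 and 0.0142). Atp2a1 was at 0.10, 0.07 and 0.07 FPKM with Ang II alone. It passed the filter only through the Tec hearts, so its direction was fixed in advance. Of the 6 tested, 1 had a lower mean with Tec, as did 80.0% of all tested genes. This was Tnnt3, the fast troponin T, with a log2 fold change of -1.77 (limma adjusted p = 0.378). Tnnt3 was at 6.91, 42.4 and 0.300 FPKM with Ang II alone and at 1.41, 1.04 and 1.31 FPKM with Tec. The log2 fold changes of Tnni2, Ckm and Acta1 were 0.78, 0.62 and 0.20, with overlap between the groups. None of the markers found in the table was at 0 in all 6 libraries. The part of these cell types and of the atrial tissue in the tubulin differences was not tested.

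Genes that make, fold, modify and use tubulin were examined in 9 lists of 124 genes, of which 121 were in the table and 94 were tested. These genes were not members, and their p-values come from the fit over all 13089 genes. None of the 94 passed an adjusted p of 0.05 (limma), where 0.183% of all tested genes did. At an unadjusted p under 0.05, 11 were lower with Tec and 0 were higher, that is 11.7% and 0% of the 94, against 16.5% and 2.09% of all tested genes. The median log2 fold change of the 94 genes was -0.17, the same as that of all tested genes, and it was 0.020 with median-of-ratios scaling, against 0.0087. Without Ang II replicate 3, 40 (42.6%) were lower and 5 higher at an unadjusted p under 0.05, against 39.3% and 4.32% of all tested genes, and 28 were lower past an adjusted p of 0.05 (26.2% of all tested genes).

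**Figure D4:**
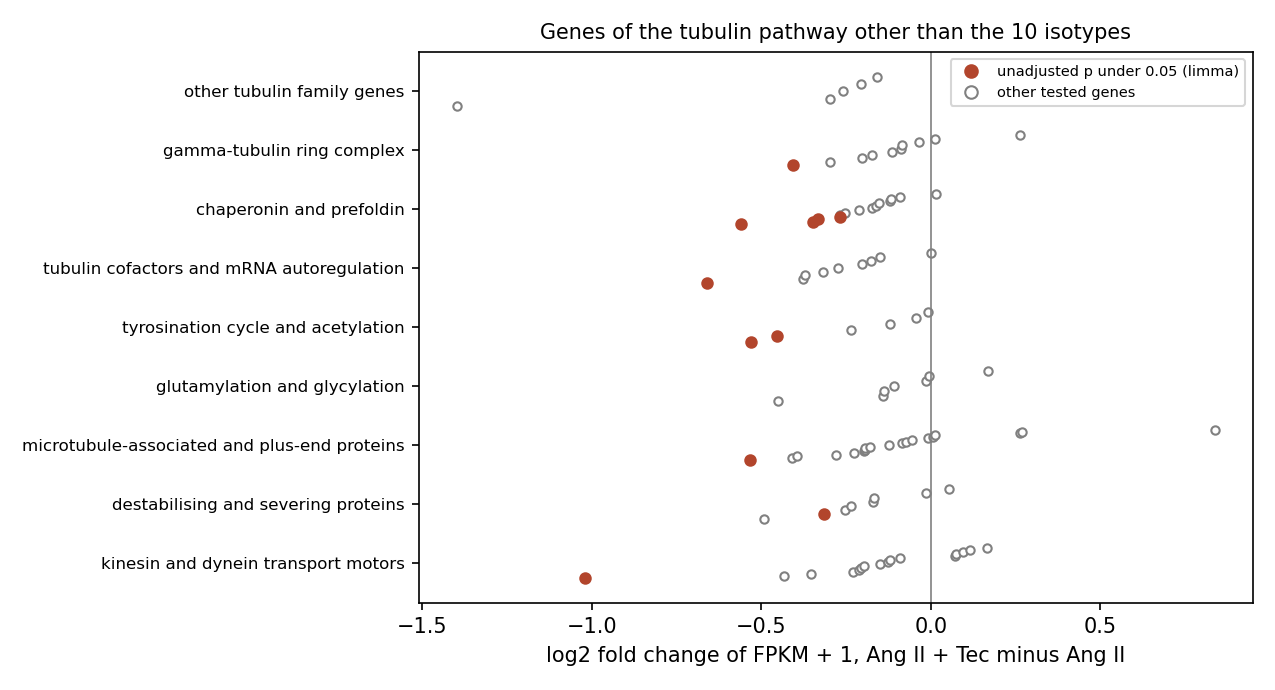
Log2 fold change (horizontal axis, Ang II + Tec minus Ang II, on the log2(FPKM + 1) scale) of the 94 tested genes of the tubulin pathway, by list. Filled points mark the 11 genes with an unadjusted p under 0.05, all below 0, and the open point furthest to the left is Tubb3 at -1.40.

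Other members of the tubulin family were low in these hearts. Tubb3, the β-tubulin of neurons, was at 6.30, 7.27 and 0.660 FPKM with Ang II alone and at 0.540, 1.66 and 0.340 FPKM with Tec, a log2 fold change of -1.40 (standard error 0.60) that did not pass the test (limma, adjusted p = 0.272). Ang II replicate 3 lay within the range of the Tec hearts. Tubb4a, Tubd1, Tubg1 and Tubg2 had log2 fold changes from -0.30 to -0.16, and 0 of these 5 genes passed an unadjusted p of 0.05. The γ-tubulin ring complex nucleates new microtubules, and 1 of its 10 tested genes passed, Nedd1, which tethers the complex (-0.41, standard error 0.15, limma, adjusted p = 0.238, and -0.19 with median-of-ratios scaling).

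Newly made tubulin is handed by prefoldin to the ring-shaped chaperonin and then to cofactors that build the dimer. Of the 14 genes of chaperonin and prefoldin, 4 were lower at an unadjusted p under 0.05 and all 4 were prefoldin subunits, Pfdn1, Pfdn4, Vbp1 and Pfdn5 (log2 fold changes -0.56, -0.35, -0.33 and -0.27). With median-of-ratios scaling these were -0.32, -0.16, -0.098 and -0.026. Pfdn1 was at 64.5, 66.6 and 45.8 FPKM with Ang II alone and at 45.3, 33.2 and 39.8 FPKM with Tec (-0.56, standard error 0.18, adjusted p = 0.228). Of the 9 genes of the cofactors and of message autoregulation, 1 passed, Tbca, a cofactor that holds β-tubulin. Tbca was at 28.7, 37.6 and 23.4 FPKM with Ang II alone and at 19.8, 16.0 and 19.0 FPKM with Tec (-0.66, standard error 0.18, limma, adjusted p = 0.209). The groups did not overlap in either Pfdn1 or Tbca, and with median-of-ratios scaling Tbca was at -0.42.

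Of the 6 tested genes of the tyrosination cycle and of acetylation, 2 were lower at an unadjusted p under 0.05. Ttl, the ligase that puts the tyrosine back on α-tubulin, was at 5.98, 5.53 and 4.52 FPKM with Ang II alone and at 3.30, 3.72 and 3.12 FPKM with Tec, without overlap. Its log2 fold change was -0.53 (standard error 0.13, limma, adjusted p = 0.201), -0.63 without Ang II replicate 3 and -0.33 after rescaling by median ratios. Svbp, the partner that vasohibins need to remove the tyrosine, was at 13.7, 16.7 and 11.4 FPKM with Ang II alone and at 8.93, 10.04 and 10.4 FPKM with Tec (-0.45, standard error 0.15, adjusted p = 0.229, and -0.23 after rescaling). These act on opposite sides of the cycle, the ligase and the partner of the enzyme that removes the tyrosine. Of the 7 tested enzymes of glutamylation and glycylation, 0 passed that p.

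Among proteins that bind microtubules, 1 of 19 tested genes passed an unadjusted p of 0.05, Mapre1, which tracks growing ends (-0.53, standard error 0.22, adjusted p = 0.265). Over the lists, 13 of the 94 genes were lower and 2 higher with Tec without overlap of the groups, beside 18.9% and 2.90% of all tested genes. The 2 with higher values were Mapt, the gene of tau, and Map7, a recruiter of kinesin, which were named after their values were seen. Mapt was at 4.63, 0.710 and 5.28 FPKM with Ang II alone and at 6.41, 6.19 and 5.47 FPKM with Tec, and its difference of 0.84 (standard error 0.46, limma, adjusted p = 0.334) came with a wide spread, Ang II replicate 2 being far below the other hearts. Map7 was at 1.68, 1.5 and 2.07 FPKM with Ang II alone and at 2.19, 2.14 and 2.60 FPKM with Tec, a difference of 0.27 (standard error 0.13, limma, adjusted p = 0.292), and neither gene passed an unadjusted p of 0.05. Of the 8 tested destabilising and severing proteins, Stmn2 passed (-0.31, standard error 0.10, adjusted p = 0.228), and of the 16 tested motor genes, Dynll1, a light chain of dynein, passed (-1.02, standard error 0.35, adjusted p = 0.229). Dynll1 overlapped between the groups through Ang II replicate 3, which was at 5.79 FPKM against 6.57 FPKM in Tec replicate 2. With median-of-ratios scaling Mapre1, Stmn2 and Dynll1 were at -0.31, -0.19 and -0.80.

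The position of Tuba4a on chromosome 1 sets it beside genes at much lower levels. Stk16, a kinase gene on the opposite strand, overlaps the end of Tuba4a by 1379 bases, so reads from the shared bases cannot be told apart if strand was not used, which is not given in the sources used here. Stk16 was at 6.69, 7.00 and 5.32 FPKM with Ang II alone and at 4.08, 5.14 and 4.06 FPKM with Tec (-0.43, standard error 0.14, limma, adjusted p = 0.228). It was the 1 gene of the 6 tested among the 8 nearest genes (Ankzf1, Glb1l, Gm27943, Stk16, A630095N17Rik, Dnajb2, Ptprn and Dnpep) with an unadjusted p under 0.05. The other 5 tested neighbours had log2 fold changes from -0.25 to -0.11 and overlapped between the groups, and Gm27943 and A630095N17Rik were at or below 0.0200 FPKM.

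The stretch just before the RefSeq start site of Tuba4a is shown for the 1 isotype that was called with all 6 libraries, with the GC box GGGCGG, on either strand, in capitals. It is the 131 bases upstream of that site (GRCm38.p6, chr1:75219295-75219425, minus strand) that lie in no exon of a GENCODE M21 transcript. The gene as the table spans it begins further upstream, at 75219865, with the first exon of another transcript, so the stretch lies inside the gene span and in an intron of that transcript.
Tuba4a: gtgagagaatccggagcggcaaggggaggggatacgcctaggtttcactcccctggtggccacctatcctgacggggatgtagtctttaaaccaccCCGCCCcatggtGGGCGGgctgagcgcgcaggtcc
It holds the GC box 2 times, once on each strand. RefSeq promoters (250 bases before to 50 after the start) were at hand for 8 of the 10 genes, all but Tubb2b and Tubb6. The GC box was in 6 of the 8 (Tuba1a, Tuba1b, Tuba4a, Tubb2a, Tubb4b and Tubb5) and in 35.7% of all 32851 promoters. CCAAT, on either strand, was in 4 of the 8 (Tuba1a, Tuba1c, Tubb4b and Tubb5), not in Tuba4a or Tuba8, and in 37.4% of all promoters. TATAAA was in 2 of the 8 (Tubb2a and Tubb4b) and in 13.6% of all promoters. These are matches of letters and not sites of binding.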

How the data were processed

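RNA from 6 mouse hearts, 3 in each group as titled by the submitters, was sequenced. FPKM of 30914 genes were deposited, made by the authors from poly(A) libraries after read trimming (Cutadapt) and quality control (FastQC). The submitters' processing notes name HISAT2 2.0, StringTie 1.3.0, Bowtie 0.12.2 and mm8, yet the coordinates matched GENCODE M21 (GRCm38) for 26777 of 30832 shared genes (86.8%) and for all 10 tubulin genes, and GRCm38 is used here. The table keeps no fragment totals, so depth is unknown, no counting interval is given, and errors are those between libraries.

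Values of log2(FPKM + 1) for the 13089 genes with at least 0.5 FPKM in at least 3 libraries were fitted with limma 3.58.1 (trended eBayes, R 4.3.3) and adjusted by Benjamini-Hochberg. This scale understates the change of low genes. An exact permutation test of 3 against 3 hearts cannot give a p below 0.1. The fit was also run on simulated data, with errors independent between genes and changes larger than that of Tuba4a. Those data lacked a shift shared by a whole library, as in Ang II replicate 3. The run therefore cannot decide how reliable calls near the limits are here. Members, gene lists and the rule for named genes (all members, up to 3 genes per list with the smallest unadjusted p under 0.05, the 8 genes nearest to Tuba4a and the 5 most correlated with it) were chosen with earlier results of these data known. Pfdn5, the other tubulin family genes, Mapt, Map7, Myl7, Sln, Myl4, Nppa, Lyz2, S100a8, Cd79a, Hbb-bs, Hba-a1, Pf4, Ppbp, Itga2b, Gp1bb, Atp2a1, Mylpf, Tnnt3, Tnni2, Ckm and Acta1 were named after their values were seen. Coding identity came from global alignment (Biopython 1.88). Protein sequences were not used here. Of the named items, 1 of the 5 correlated genes and some coding ends are not reported here. Alternatives changed the pseudocount, filter, scaling, block, variance estimate, library weights and the libraries included.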

Additional observations from a re-analysis of the deposited data

How the results depend on the processing

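Under 13 alternatives of the fit and with near-identical genes summed, all 132 log2 fold changes of the 10 isotypes stayed below 0, and 2 moved by more than the SD between replicates, both of Tuba4a, to -0.77 with median-of-ratios scaling and to -0.88 with library weights, whose estimation stopped before it converged. The differentially expressed genes numbered 21, and 3 with no filter on low values, 522 with library weights and 2 to 557 without 1 library (3, 7 and 557 without Ang II replicates 1, 2 and 3, and 4, 2 and 3 without Tec replicates 1, 2 and 3). Genes of the tubulin pathway lists with an unadjusted p under 0.05 numbered 11, and 48 with library weights and 3 to 45 without 1 library, 45 being without Ang II replicate 3. Of the genes next to Tuba4a, 1 had such a p, and 3 with library weights and 0 to 3 without 1 library. Same-numbered hearts deviated from their group means together with correlations of -0.039, 0.429 and 0.379. The values 0.429 and 0.379 were the highest over all combinations, while Ang II replicate 1 correlated best with Tec replicate 2 (0.212). Deviations within a group of 3 sum to 0, so these correlations cannot decide whether hearts were paired. With a replicate block, 22 genes were called, 19 genes of the pathway lists had an unadjusted p under 0.05, and Tuba4a was not called. The median log2 fold change of 5 of the 9 lists was above 0 after median-of-ratios scaling, chaperonin and prefoldin at 0.045 and the transport motors at 0.079 among them. The causes of these shifts were not tested. Depth limits none of the isotypes by a stated amount, because the table holds no fragment counts.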
